A study of Homo sapiens with 12 samples.

Results

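The genes described here encode 10 signalling proteins of inflammation: the chemokines CXCL1, CXCL2, CXCL3, CXCL8 and CCL2, the interleukin-1 cytokines IL1A and IL1B, the interleukin-6 family cytokines LIF and IL11, and the colony-stimulating factor CSF2. The list was fixed by gene name, with earlier results of these data known, and the table holds all 10 of them among its 58302 genes. RNA was sequenced from 12 libraries, 3 for each of 4 cell lines. TPC1 is a line from a human papillary thyroid carcinoma, labelled wild type and untreated. D11, WB1 and TD5 were derived from it by transient transfection with a CRISPR/Cas9 plasmid whose guide RNA cuts in DICER1, and are labelled DICER (+/-). Each of them grew from a single sorted cell, so a line stands for 1 clone, and genotype cannot be told apart from transfection, sorting or the history of that clone. All lines grew in the same serum-containing RPMI medium, and the labels name no inflammatory stimulus. The 3 libraries of a line carry numbers but nothing says that they came from separate cultures, so p-values measure the spread between these libraries, which may be technical.

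Chemokines bind receptors on leukocytes and draw them along a gradient. The CXC chemokines of this set act on CXCR1 and CXCR2 and attract mainly neutrophils, whereas CCL2 acts on CCR2 and attracts monocytes. Their genes, and those of many inflammatory cytokines, are switched on by the transcription factor NF-kB, and their mRNAs are kept short-lived by proteins that bind AU-rich elements in the 3′ untranslated region. Carcinoma cells, including those of the thyroid, commonly secrete them without immune cells present. DICER1 is the ribonuclease that cuts microRNA precursors, and let-7, a microRNA family, depends on it.

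Values are scaled reads: reads counted on the exons of a gene, scaled by the authors to 20000000 aligned reads per library and rounded up. The reads behind them were estimated from the steps between whole numbers. TPC1 libraries held 13745000 to 21021000, those of D11 14580000 to 16794000, those of WB1 16461000 to 17326000, and TD5 libraries 12699000 to 15901000. A count of 3 reads, the upper limit that a count of 0 allows, corresponds to 2.85 to 4.72 scaled reads and covers counting error alone. Of the 10 genes 8 had at least 1 per 1000000 in at least 3 libraries and were tested with 16027 genes, and IL1A and IL1B did not. CXCL3 lay below that limit in every TD5 library and passed through the other lines. Differences are given on the log2(value per 1000000 + 1) scale, which understates those of low genes, and calls needed at least a 1.5-fold difference with p under 0.05 by limma after Benjamini-Hochberg adjustment.

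DICER1, the targeted gene, was measured at 1360, 1129 and 1101 scaled reads in TPC1, 977, 1051 and 1093 in D11, 881, 939 and 815 in WB1, against 643, 627 and 809 in TD5. All clone libraries lay below all TPC1 libraries, and the TD5 libraries lay lowest. Against TPC1 the log2 differences were -0.19 (D11, adjusted p = 0.138, limma), -0.43 (WB1, adjusted p = 0.00404) and -0.77 (TD5, adjusted p = 9.02e-05), of which the last was called. With the GC correction WB1 was called as well (-0.62, adjusted p = 2.61e-06). Of the thyroid transcription factors, PAX8 was measured at 7248 to 9879 scaled reads and HHEX at 84 to 135, and FOXE1, at 280 to 316 in TPC1 and 93 to 171 in the clones, was called lower in all 3 clones, whereas TSHR, NKX2-1 and SLC5A5 were at 0 in all 12 libraries and TG, the thyroglobulin gene, at 11 to 27. Of 16 immune cell markers, CD68 carried most of the summed level (943 to 1174 scaled reads in TPC1, 999 to 1153 in D11, 1273 to 1546 in WB1, 1242 to 1387 in TD5). PTPRC, the pan-leukocyte marker, lay at 0 to 3, CD14 at 0 to 6, and CD3E, CD8A and FCGR3A were at 0. The summed fibroblast and endothelial markers ranged from 370 to 599 scaled reads, with LUM at 63 to 78 in TPC1, 138 to 212 in WB1, 0 in D11 and 0 to 2 in TD5. In bulk RNA, fewer cells that express a gene and less RNA per cell cannot be told apart.

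The 4 CXC chemokine genes of the set lie within 358.677 kb of chromosome 4 on GRCh38: CXCL8 at chr4:73740519-73743716 and CXCL1 at chr4:73869393-73871308 on the plus strand, CXCL3 at chr4:74036589-74038807 and CXCL2 at chr4:74097040-74099196 on the minus strand. Their promoters, as RefSeq gives them for GRCh38.p14 from 250 bases before to 50 bases after the gene start, share the 9-base sequence GGAATTTCC, a form of the NF-kB binding motif. It was looked for after the sequences had been read. The stretches around it are shown because they are what the CXC chemokines of the set have in common at the DNA level. They are written 5′ to 3′ on the strand of the gene, with the shared sequence in capitals.
CXCL1: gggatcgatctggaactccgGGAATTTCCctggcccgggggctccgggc
CXCL2: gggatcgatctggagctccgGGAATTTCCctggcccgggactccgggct
CXCL3: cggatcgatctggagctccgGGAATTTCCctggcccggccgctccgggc
CXCL8: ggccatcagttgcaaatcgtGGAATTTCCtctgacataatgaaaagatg
The stretches lie at chr4:73869295-73869343 (plus strand), chr4:74099244-74099292 (minus), chr4:74038739-74038787 (minus) and chr4:73740458-73740506 (plus), in that order. The shared sequence began 78 bases before the RefSeq start of CXCL1, 77 before that of CXCL2, 78 before that of CXCL3 and 91 before that of CXCL8. The gene positions given above are those of GENCODE, which places the starts of CXCL3 and CXCL8 elsewhere. By those positions the CXCL3 stretch lies inside the gene, and the CXCL8 stretch lies before the gene but nearer to its start. The flanks of CXCL1, CXCL2 and CXCL3 read almost alike, and those of CXCL8 read differently. Of the 10 genes 8 had a promoter in the table, all but CCL2 and LIF. On either strand, GGAATTTCC occurred in 4 of these 8 promoters and in 0.472% of 27305 promoters. A wider NF-kB consensus matched 3 of the 8, those of CXCL1, CXCL2 and CXCL3 at the same place, against 10.8% of all promoters. TGANTCA, the AP-1 motif, which reads the same on both strands, occurred in the promoters of IL1A, CXCL8 and IL11, 3 of 8, against 7.76%. A match of letters is a description and not a measured binding site.

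CXCL8 and CXCL1 were called lower in the TD5 clone against each of the other lines, and CXCL2 and CXCL3 against D11 and WB1 but not against TPC1. CXCL8, the gene of interleukin-8, had 464, 309 and 417 scaled reads in TPC1, 315, 409 and 280 in D11, 407, 321 and 213 in WB1, against 81, 141 and 101 in TD5. Every TD5 library lay below every other library, and TPC1, D11 and WB1 overlapped. The mean of TD5, 108 ± 30.6 (SD, n = 3), was 27.1% of the TPC1 mean, 397 ± 79.5 (SD, n = 3). The log2 difference from TPC1 was -1.71 (SE 0.21, limma, Benjamini-Hochberg adjusted p = 4.98e-05), or 3.28-fold. TD5 also lay lower than D11 by -1.48 (adjusted p = 0.00011) and than WB1 by -1.37 (adjusted p = 0.0005) on the log2 scale. D11 and WB1 differed from TPC1 by -0.23 (adjusted p = 0.4) and -0.35 (adjusted p = 0.209), neither called. With each library corrected for its trend with GC content, which is 32.9% in CXCL8, these became -0.60 in each (adjusted p = 0.0341 in D11 and 0.0304 in WB1), and CXCL8 was called lower in all 3 clones.

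CXCL1, the growth-regulated chemokine first found in melanoma cells, was the most abundant CXC chemokine of the set, with 977, 745 and 863 scaled reads in TPC1, 933, 1004 and 876 in D11, 968, 966 and 806 in WB1, against 404, 527 and 507 in TD5. The TD5 libraries again lay below all others, and the other lines overlapped. Their mean of 479 ± 66.0 (SD, n = 3) was 55.6% of that of TPC1, 862 ± 116 (SD, n = 3). TD5 differed from TPC1 by -0.82 (SE 0.11, adjusted p = 0.000136, limma), from D11 by -0.95 (adjusted p = 1.74e-05) and from WB1 by -0.91 (adjusted p = 5.52e-05) on the log2 scale, all called. In D11 and WB1 the differences from TPC1 were 0.13 and 0.09, with 95% intervals from -0.11 to 0.36 and from -0.15 to 0.32.

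CXCL2, a close relative of CXCL1, had 120, 90 and 133 scaled reads in TPC1, 149, 164 and 118 in D11, 169, 160 and 133 in WB1, against 62, 72 and 104 in TD5. TD5 was lower than D11 and WB1 without overlap and overlapped TPC1 in its highest library. The difference of TD5 was called against D11 (-0.73, adjusted p = 0.00439, limma) and WB1 (-0.83, adjusted p = 0.00376), and was -0.44 against TPC1 (adjusted p = 0.0848). Without TD5 replicate 3 the last was -0.62 (adjusted p = 0.0211) and called. With a pseudocount of 4 per 1000000 the differences from D11 and WB1 were -0.49 and -0.56, under 1.5-fold, and not called.

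CXCL3 was the least abundant CXC chemokine of the set, with 31, 20 and 15 scaled reads in TPC1, 20, 31 and 22 in D11, 27, 21 and 23 in WB1, against 12, 5 and 9 in TD5. The TD5 libraries lay below all others, at an estimated 3 to 7 reads against 10 to 32 in TPC1. TD5 differed from TPC1 by -0.54 (adjusted p = 0.0326, limma), under 1.5-fold and so not called, and from D11 by -0.63 (adjusted p = 0.00889) and WB1 by -0.61 (adjusted p = 0.0169), both called. These 3 values depend on the pseudocount: the one against TPC1 was -1.17 with a pseudocount of 0.1 per 1000000 and -1.44 by limma's voom on estimated reads, called in both, and the calls against D11 and WB1 were lost with a pseudocount of 4 (-0.23 in each) and with the GC correction (-0.53 and -0.52). Single libraries decided them too: without TPC1 replicate 3 or TD5 replicate 1 the difference from TPC1 was -0.66 or -0.62 and called. The call against D11 was lost without D11 replicate 2 (-0.52) or TD5 replicate 2 (-0.53), and that against WB1 without WB1 replicate 1 (-0.56) or TD5 replicate 2 (-0.52).

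**Figure D1:**
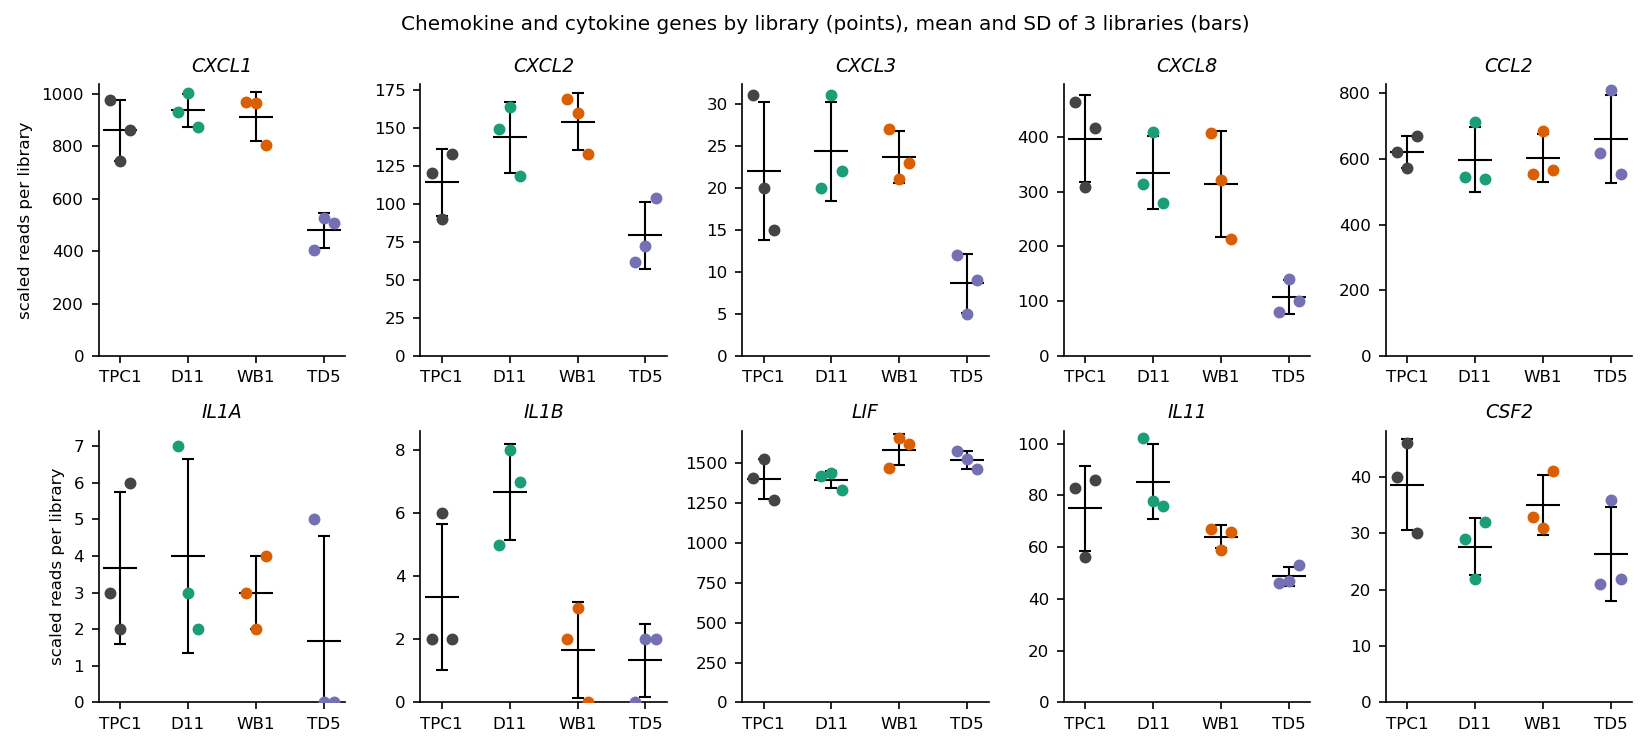
Scaled reads (linear axes from 0) of the 10 chemokine and cytokine genes in the 3 libraries of TPC1, D11, WB1 and TD5; points are libraries in the order of their numbers, horizontal bars the means and vertical bars the SD. CXCL1, CXCL3, CXCL8 and IL11 have all TD5 points below every other point, CCL2 and LIF stand at like heights in all lines, and IL1A and IL1B stay at 8 or fewer.

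CCL2 (chr17:34255274-34257208), the monocyte chemokine, did not follow the CXC genes. It had 622, 573 and 670 scaled reads in TPC1, 544, 711 and 538 in D11, 555, 686 and 566 in WB1, against 619, 811 and 553 in TD5. All lines overlapped. The log2 differences from TPC1 were -0.06 (95% interval from -0.34 to 0.21) in D11, -0.05 (from -0.32 to 0.23) in WB1 and 0.07 (from -0.20 to 0.34) in TD5, so that a 1.5-fold change lay outside each interval.

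LIF (chr22:30240453-30246759), leukaemia inhibitory factor, signals through LIFR and gp130. It had 1409, 1525 and 1269 scaled reads in TPC1, 1419, 1439 and 1335 in D11, 1473, 1658 and 1620 in WB1, against 1574, 1524 and 1462 in TD5. WB1 and TD5 each lay above D11 without overlap, and overlapped TPC1 and each other. The differences from TPC1 were -0.00030 in D11, 0.18 in WB1 (adjusted p = 0.073, limma) and 0.12 in TD5 (adjusted p = 0.311), with 95% intervals that end at 0.15, 0.33 and 0.27. LIF overlaps the antisense genes LIF-AS1 and LIF-AS2, and whether counting used the strand is not given in the sources used here. LIF-AS1 had 2 to 10 scaled reads.

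IL11 (chr19:55364382-55370463), which signals through IL11RA and gp130, had 83, 56 and 86 scaled reads in TPC1, 102, 78 and 76 in D11, 67, 59 and 66 in WB1, against 46, 47 and 53 in TD5. The TD5 libraries lay below all others, and WB1 also lay below D11 without overlap. TD5 differed from D11 by -0.61 (adjusted p = 0.00531, limma), which was called, from TPC1 by -0.45 (adjusted p = 0.0423), under 1.5-fold, and from WB1 by -0.29 (adjusted p = 0.168). Without TPC1 replicate 2 the difference from TPC1 was -0.61 and called, and without D11 replicate 1 or TD5 replicate 1 that from D11 was -0.50 or -0.58, under 1.5-fold. It was also under that limit, at -0.57, with median-of-ratios scaling in place of library sums.

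CSF2 (chr5:132073789-132076170), the gene of GM-CSF, had 40, 46 and 30 scaled reads in TPC1, 29, 22 and 32 in D11, 33, 31 and 41 in WB1, against 21, 36 and 22 in TD5. All lines overlapped, and the differences from TPC1 were -0.30 (D11, adjusted p = 0.142, limma), -0.09 (WB1, adjusted p = 0.686) and -0.35 (TD5, adjusted p = 0.152). The interval of the last, from -0.67 to -0.02, holds a 1.5-fold decrease.

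IL1A (chr2:112773925-112784493) and its neighbour IL1B (chr2:112829751-112836816), the interleukin-1 genes, were close to the detection floor. IL1A had 3, 2 and 6 scaled reads in TPC1, 7, 3 and 2 in D11, 3, 2 and 4 in WB1, against 5, 0 and 0 in TD5. IL1B had 2, 6 and 2 in TPC1, 5, 8 and 7 in D11, 2, 3 and 0 in WB1, against 0, 2 and 2 in TD5. All lines overlapped for IL1A, and the D11 libraries lay above those of WB1 and TD5 for IL1B, at an estimated 3 to 6 reads. The 9 clone libraries, pooled over the 3 clones, differed from the 3 TPC1 libraries by -0.05 for IL1A (p = 0.573) and -0.01 for IL1B (p = 0.864) in mean log2 value (exact two-sided permutation test). For IL1B this pooled value averages clones on opposite sides of TPC1, whose mean was 3.33 scaled reads. The means of D11, WB1 and TD5 were 6.67, 1.67 and 1.33. It says nothing of a single clone.

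Over the set, 0 of the 8 tested genes were called in D11 against TPC1, where 4.84% of all tested genes were, and 0 in WB1, where 4.99% were. The numbers called by limma's voom on estimated reads were 0 in both as well. At an unadjusted p under 0.05 limma gave 0 genes in D11, where 44.6% of all genes passed, and 2 in WB1, CXCL2 (0.38) and LIF, where 42.7% passed. None was thus called in all 3 clones, where 0.374% of all genes were called lower and 0.2% higher. In TD5 2 of 8 were called lower, CXCL1 and CXCL8, against 1.48% of all genes, and 0 higher, against 1.12%. Without a minimum fold the number was 4 of 8, against 6.57%. TD5 against D11 gave 5 of 8 lower, CXCL1, CXCL2, CXCL3, CXCL8 and IL11, against 2.32%, and 0 higher, against 1.67%. TD5 against WB1 gave 4 of 8 lower, CXCL1, CXCL2, CXCL3 and CXCL8, against 1.72%, and 0 higher, against 0.611%. WB1 against D11 gave 0, against 2.85% in either direction, with 2 genes at an unadjusted p under 0.05 (LIF and IL11), where 19.3% of all genes passed. TD5 lay lower without overlap in 4 of 8 genes against TPC1, in 5 of 8 against D11 and in 5 of 8 against WB1, as did 15%, 22.9% and 19.1% of all genes. LIF went the other way against D11, with every TD5 library above every D11 library. All TD5 libraries lay below the 9 others in 4 of 8 genes, CXCL1, CXCL3, CXCL8 and IL11, against 3.16% of all genes. CXCL3 was tested through the lines where it is higher, so that its part in these counts supports nothing. Without it the called numbers were 2 of 7 against TPC1, 4 of 7 against D11 and 3 of 7 against WB1, and 3 of 7 genes had all TD5 libraries below the 9 others. CXCL1 and CXCL8 were called lower in TD5 against each of the other lines, as were 0.225% of all genes. The median log2 difference of the 8 genes between TD5 and TPC1 was -0.45, and -0.44 without CXCL3, against 0.00059 over all tested genes. The comparisons against TPC1 share its libraries. TD5 was also the line with the shallowest library and the lowest DICER1, and the part of either in these differences was not tested. The calls of CXCL1 and CXCL8 in TD5 held in 23 fits each, with CXCL8 between -1.90 and -1.34 against TPC1 (adjusted p from 7.65e-06 to 0.000932, limma) and CXCL1 between -0.92 and -0.71 (adjusted p from 2.27e-05 to 0.00169).

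**Figure D2:**
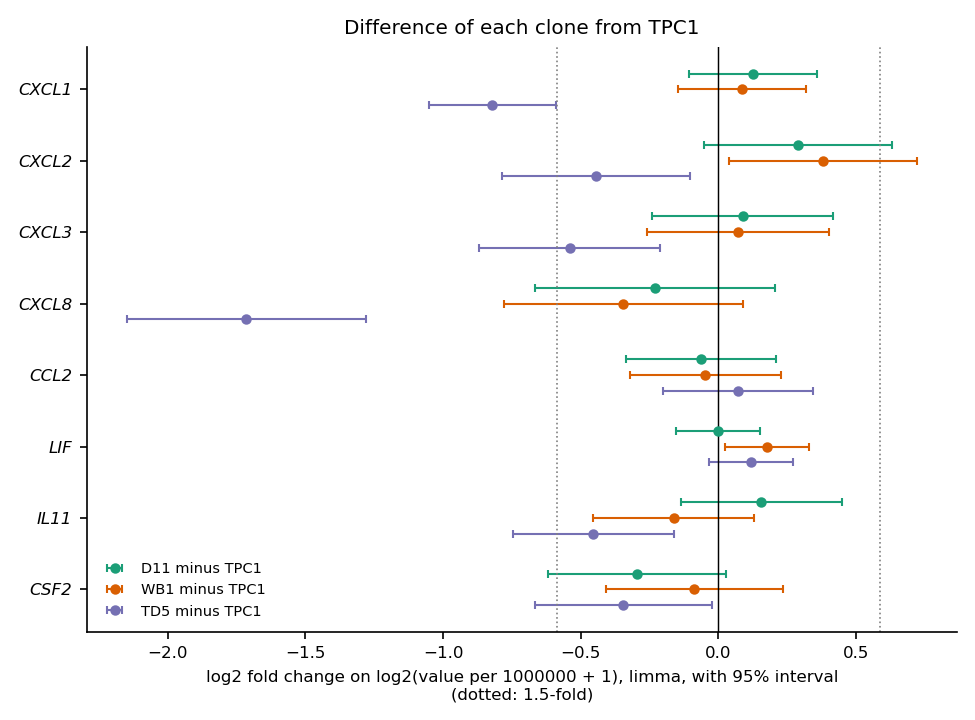
Log2 differences of D11, WB1 and TD5 from TPC1 (x axis, log2 of value per 1000000 + 1) for the 8 tested genes (y axis), as limma estimates with 95% intervals; dotted lines mark 1.5-fold. CXCL8 (-1.71) and CXCL1 (-0.82) in TD5 are the points whose whole interval lies left of the dotted line, while the D11 and WB1 intervals of every gene except CXCL2 and LIF in WB1 reach 0.

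Per kilobase of exon, the order of the genes by level also differed between lines. In TPC1, CXCL1 stood highest at 31.6 ± 4.26 per 1000000 per kb (SD, n = 3), above LIF (18.1 ± 1.65) and CCL2 (16.1 ± 1.25), which overlapped. CXCL8 (7.66 ± 1.54), CXCL2 (4.09 ± 0.788), CSF2 (2.45 ± 0.513), IL11 (1.40 ± 0.308) and CXCL3 (0.495 ± 0.184) followed, each apart from the next. IL1A and IL1B came last and overlapped. In D11 and WB1 CXCL8 and CXCL2 overlapped, and CXCL1 remained above all others at 34.4 ± 2.35 and 33.5 ± 3.41. In TD5, LIF (19.6 ± 0.725), CXCL1 (17.6 ± 2.42) and CCL2 (17.1 ± 3.46) overlapped at the top, and CXCL2 (2.84 ± 0.784), CXCL8 (2.08 ± 0.590) and CSF2 (1.67 ± 0.532) overlapped below them. CXCL1 and CXCL2 are 91.1% identical over their aligned transcripts, CXCL1 and CXCL3 82.2%, and CXCL2 and CXCL3 83.6%. They share no stretch of 100 bases, but reads that fit more than a single copy could have been split or dropped, and the share of each is uncertain to that extent.

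The libraries of a line also varied together in part. The deviations of CXCL1 and CXCL8 from their line means had a Pearson r of 0.89 over 12 libraries, and those of CXCL1 and CXCL2 had 0.74. For CXCL1 and CXCL3, whose reads are few, r was 0.13. In other pairs r was negative, lowest for CXCL2 and CSF2 (-0.60) and for LIF and IL11 (-0.57). These libraries share their scaling, and the values are descriptions. Likeness was taken over 12238 genes averaging 5 per 1000000 or more. Those most like CXCL8 over the 12 libraries were RBM28 (r = 0.954), EBP (0.951) and AL669918.1 (0.949), and those most like CXCL1 were GFM2 (0.969), RND3 (0.965) and BDNF (0.962). Between TD5 and TPC1, RBM28 (-0.25), EBP (-0.78) and AL669918.1 (-1.11) each differed less than CXCL8 (-1.71). GFM2 (-0.24), RND3 (-0.63) and BDNF (-0.48) each differed less than CXCL1 (-0.82). The highest r was 0.936 for CXCL2 (KCTD13, then AC005324.4 and SBNO1), 0.924 for CXCL3 (DENND5B, then ADAT1 and PDCD1LG2), 0.938 for IL11 (GATA2, then WDCP and ZSCAN25) and 0.921 for CSF2 (LRRC28, then KCTD2 and BIN3). It was 0.950 for LIF (CGNL1, then KIAA0513 and PAX8) and 0.833 for CCL2 (PHKG2, then POP7 and UCKL1). The highest of so many values is large by selection.

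Around the CXC cluster, 45 annotated genes lie within 1 Mb on either side, and 11 of them were tested, 4 of these being the chemokines. Among the 7 others 1 was called lower in TD5 and 0 higher, against 1.48% and 1.12% of all genes, and their median log2 difference was -0.15. That gene was AREG, the epidermal growth factor receptor ligand amphiregulin, 704.617 kb from CXCL8, with 50, 45 and 59 scaled reads in TPC1, 35, 47 and 47 in D11, 21, 26 and 24 in WB1, against 16, 9 and 9 in TD5. AREG was also called lower in WB1 (-0.70, adjusted p = 0.00137, limma), and its TD5 difference was -1.19 (adjusted p = 2.93e-05). Like CXCL3, AREG lay below the filter limit in every TD5 library and was tested through the lines where it is higher. Its call in TD5 therefore supports nothing about the genes around the cluster. MTHFD2L, whose start is the nearest to CXCL2 among the tested genes, differed by 0.08 in TD5 (adjusted p = 0.815, limma), and EREG, the gene of epiregulin, by -0.15 (adjusted p = 0.397). Of the other chemokine genes inside the cluster, CXCL5 lay at 0 or 1 scaled read, CXCL6 and PPBP at 0 to 2, and PF4 at 0 in every library.

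**Figure D3:**
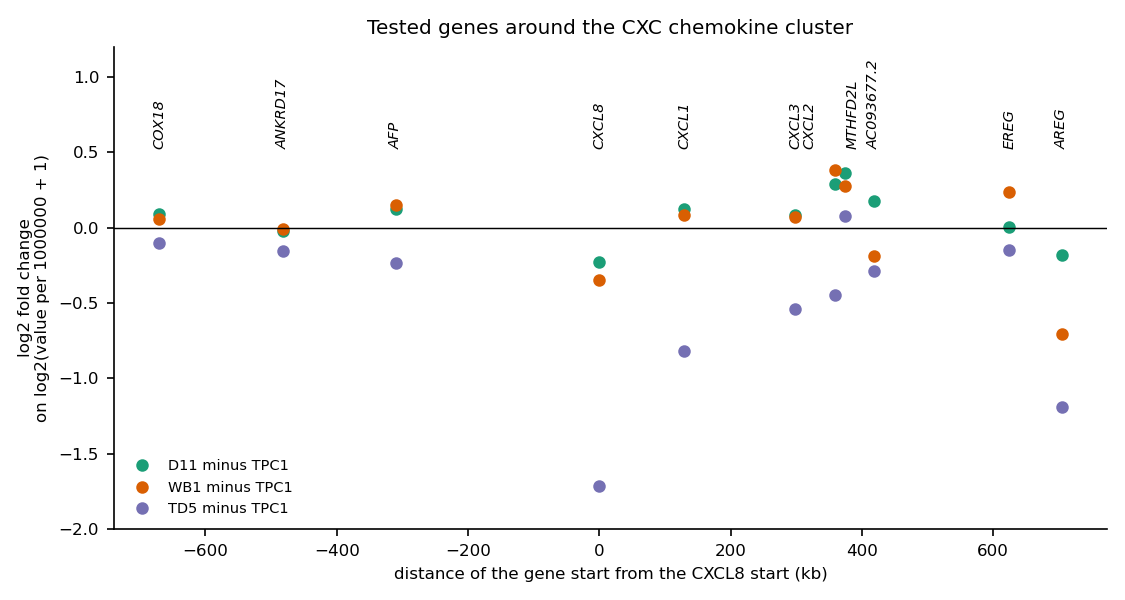
Log2 differences from TPC1 (y axis, log2 of value per 1000000 + 1) of the 11 tested genes around the CXC chemokine cluster against the distance of their start from that of CXCL8 in kb (x axis, linear); each colour is a clone. The TD5 points are lowest at CXCL8 (-1.71), AREG (-1.19) and CXCL1 (-0.82), and the genes on the left of the cluster lie between -0.23 and 0.15 in all clones.

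In the 3′ untranslated region of the reference transcript, the AU-rich pentamer AUUUA occurred in 10 of 10 genes of the set, against 75.3% of 12036 tested genes with a region of at least 100 bases. Per kilobase the median was 7.48 against 1.78. CSF2 had the densest region, with 25.2 per kb, followed by CXCL2 (14.0), CXCL3 (10.4) and IL1B (9.84). CXCL1 (7.77) and CXCL8 (7.19) lay near the median of the set, and CCL2 (2.66) and LIF (2.19) lowest. CSF2 was not called in any clone, and CXCL2 and CXCL3 were called lower in TD5 against D11 and WB1. Whether this density has a part in the differences was not tested. The 7-base site of the let-7 seed, CTACCTC, occurred in 0 of 10, against 11.6% of the tested genes. The counts are of letters in the reference sequence, and decay was not measured.

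The chemokine receptor genes CXCR1, CXCR2 and CCR2 and the GM-CSF receptor gene CSF2RA were sparse. Of 18 receptor and decoy genes 6 were tested. CXCR1 lay at 0 in all libraries, CXCR2 at 0 to 2, CCR2 at 0 or 1, and CSF2RA, the GM-CSF receptor, at 0 to 7. The chains used by LIF, IL11 and IL-1 were present: IL6ST, which encodes gp130, had 2258 to 4100 scaled reads, LIFR 447 to 713, IL11RA 138 to 213, and IL1RAP 287 to 498. IL1R1, the interleukin-1 receptor, had 276, 232 and 230 scaled reads in TPC1 and 473, 360 and 428 in WB1, which did not overlap, and was called higher in WB1 (0.72, adjusted p = 0.000845, limma) and in no other clone. It was also called higher in WB1 than in D11 (0.67, adjusted p = 0.0031). The latter call was lost without D11 replicate 2 (0.57) or WB1 replicate 1 (0.58). The WB1 call was the only one in that list against TPC1, and 3.39% of all genes were called higher in WB1.

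Other secreted factors were measured as well. Of 19 other chemokine genes 3 were tested and 0 called against TPC1, where 4.84%, 4.99% and 2.6% of all genes were called in D11, WB1 and TD5. Between clones 1 was called higher in TD5 than in D11 and WB1, as were 1.67% and 0.611% of all genes. CX3CL1, an adhesive chemokine, was higher in TD5 than in D11 (0.81) and WB1 (0.95) by limma (adjusted p = 0.00095 and 0.000547), calls lost with a pseudocount of 4. It reached 1 per 1000000 in the TD5 libraries alone and so was tested through the line where it is high. Of 22 other cytokine genes 11 were tested, and 2 were called lower in D11, 2 in WB1 and 3 in TD5, with 1 higher in WB1. Of all genes, 1.95%, 1.59% and 1.48% were called lower in D11, WB1 and TD5, and 3.39% higher in WB1. IL6, the NF-kB target that names its family, had 257, 171 and 213 scaled reads in TPC1, 129, 151 and 114 in D11, 140, 106 and 98 in WB1, against 100, 126 and 68 in TD5. All clone libraries lay below all TPC1 libraries, and the differences were -0.62, -0.79 and -1.0 in D11, WB1 and TD5 (adjusted p = 0.014, 0.00349 and 0.00138, limma). The call in D11 was lost without TPC1 replicate 1 (-0.49) or D11 replicate 3 (-0.53). IL32, a proinflammatory cytokine, had 91, 49 and 127 scaled reads in TPC1 and 13 to 47 in the clones, again without overlap, with differences of -1.17, -1.07 and -1.30. IL24 had 21, 23 and 30 scaled reads in TPC1 and 7, 6 and 8 in TD5 and was called lower in TD5 against TPC1 (-0.72, adjusted p = 0.00603), D11 (-0.79) and WB1 (-0.68), though like CXCL3 it was tested through the other lines. IL7 was called higher in WB1 (0.63, adjusted p = 0.00294). The IL7 call was lost without WB1 replicate 1 or 2 (0.58 in each) and with the GC correction (0.41), and the IL24 call with a pseudocount of 4.

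All 25 genes of the NF-kB list, its subunits, adaptors and feedback inhibitors, were tested, and the clones D11, WB1 and TD5 had 4, 3 and 4 called lower, with 1 called higher in each. The shares of all genes called lower were 1.95% (D11), 1.59% (WB1) and 1.48% (TD5). Those called higher were 2.89%, 3.39% and 1.12%, by clone as before. NFKB2, the subunit of the noncanonical pathway and itself an NF-kB target, had 1479, 1148 and 1522 scaled reads in TPC1, 714, 675 and 595 in D11, 682, 692 and 734 in WB1, against 749, 805 and 744 in TD5. Every clone library lay far below every TPC1 library, and the differences were -1.04, -0.95 and -0.83 (adjusted p = 1.21e-06, 5.64e-06 and 3.35e-05, limma). Its partner RELB was lower by -0.67, -0.61 and -0.63, and TRAF1, an adaptor of tumour necrosis factor receptors, by -0.69, -0.90 and -0.95, all called. NFKBIZ, a nuclear cofactor that NF-kB needs at some of its targets, was higher in all clones, with 799, 769 and 600 scaled reads in TPC1 and 1002 to 1399 in the clones (0.90, 0.79 and 0.62, all called). RELB and NFKBIZ stood close to the 1.5-fold limit. RELB dropped below it in all clones without TPC1 replicate 3 (-0.55, -0.49 and -0.51), in WB1 and TD5 without TPC1 replicate 1 (-0.56 and -0.58), and without D11 replicate 3 in D11 (-0.56), WB1 replicate 3 in WB1 (-0.58), and TD5 replicate 1 or 3 in TD5 (-0.57 and -0.58). NFKBIZ did so in TD5 without TPC1 replicate 3 (0.49) or TD5 replicate 3 (0.56). The TRAF1 calls were lost with a pseudocount of 4, and the RELB calls in D11 and WB1 with the GC correction (-0.56 and -0.48).

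TNFAIP3, the feedback inhibitor A20, was called lower in TD5 (-0.61, adjusted p = 0.00886, limma) and lay at -0.30 in D11 and -0.31 in WB1. TD5 did not differ from either by a call (-0.31 in each, adjusted p = 0.117 and 0.15). Its call was lost without TPC1 replicate 1 (-0.50), TPC1 replicate 3 (-0.58) or TD5 replicate 2 (-0.58). NFKBIA, the inhibitor that NF-kB induces, was at -0.22, -0.38 and -0.53, under 1.5-fold in each. It was called in TD5 without TPC1 replicate 2 (-0.68) or TD5 replicate 2 (-0.63). MYD88, the adaptor through which interleukin-1 receptors and most Toll-like receptors signal, had 266, 287 and 281 scaled reads in TPC1, 7, 5 and 13 in D11, 355, 280 and 333 in WB1, against 281, 286 and 231 in TD5. The D11 libraries stood apart from all others, by -3.40 from TPC1, with WB1 3.60 and TD5 3.34 above D11. ICAM1, an adhesion molecule and NF-kB target chosen after its values were seen, had 95, 60 and 95 scaled reads in TPC1 and 0 to 7 in the clones.

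**Figure D4:**
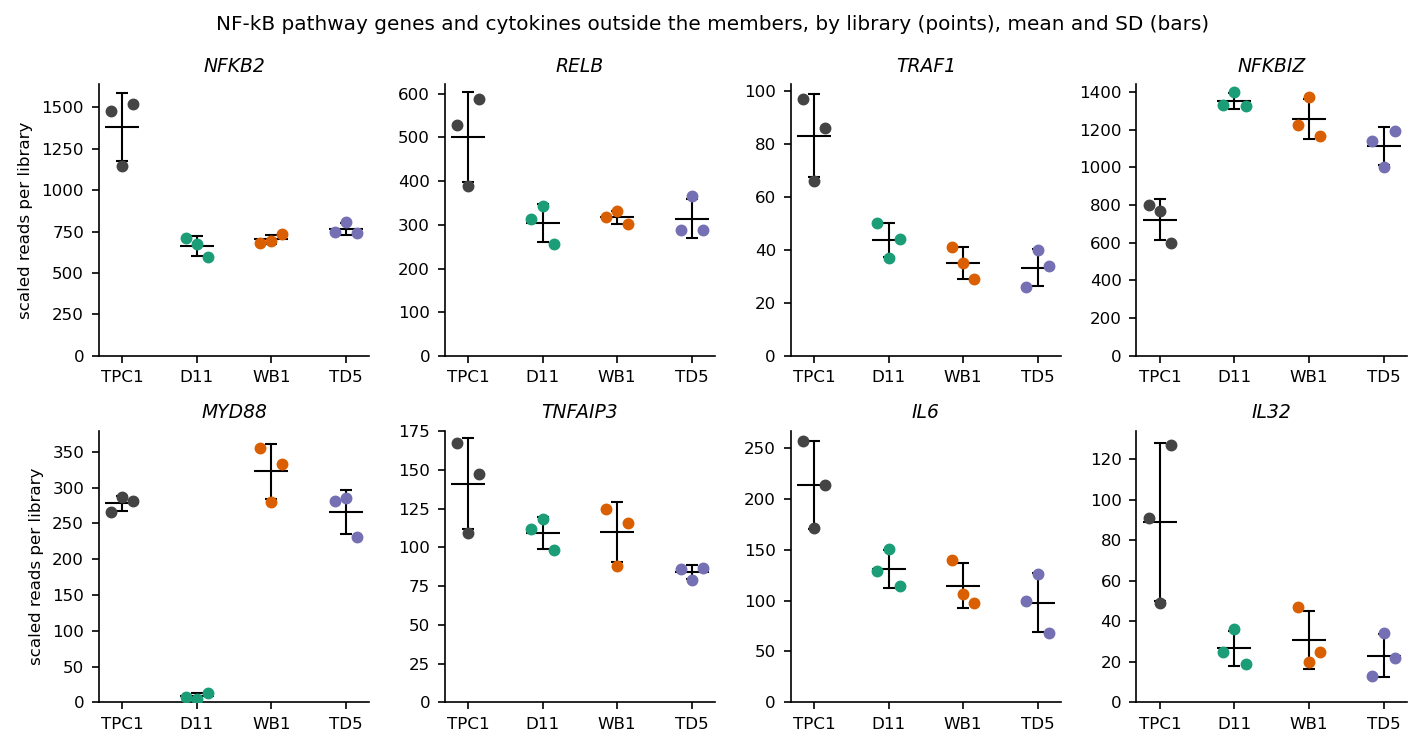
Scaled reads (linear axes from 0) of 6 NF-kB pathway genes and of the cytokine genes IL6 and IL32 in the 3 libraries of each line; points are libraries, horizontal bars means and vertical bars the SD. NFKB2, RELB, TRAF1, IL6 and IL32 lie lower and NFKBIZ higher in all 3 clones without overlap with TPC1, MYD88 stands at 5 to 13 in D11 alone, and TNFAIP3 is lowest in TD5.

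Of 18 genes of cytokine mRNA decay, all tested, 0 were called in any clone against TPC1, where 4.84%, 4.99% and 2.6% of all genes were called in D11, WB1 and TD5. ZFP36, the AU-rich element binding protein tristetraprolin, lay at 236 to 317 scaled reads, and ZC3H12A, the ribonuclease regnase-1, at 89 to 166. Of 16 genes of the gp130 and STAT3 output 15 were tested and 1 was called against TPC1, in WB1, where 4.99% of all genes were called. SOCS1, a feedback inhibitor, was higher in WB1 (0.74, adjusted p = 0.00214, limma), a call lost with a pseudocount of 4 (0.34). SOCS3 lay at 801 to 1161 scaled reads in all lines. Between clones, CEBPD was called higher in TD5 than in D11 (0.71) and WB1 (0.77), calls lost without TD5 replicate 3 (0.49 and 0.56). The CEBPD call against D11 was also lost with the GC correction (0.57) and with a pseudocount of 4 (0.56). SOCS2 was called lower in TD5 than in D11. Of all genes, 1.67% were called higher and 2.32% lower in TD5 than in D11, and 0.611% higher in TD5 than in WB1.

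Interleukin-1 maturation needs inflammasomes, which activate caspase-1. Of 14 such genes 10 were tested. NLRP3, an inflammasome sensor, had 840, 743 and 843 scaled reads in TPC1, 549, 456 and 566 in WB1, against 457, 561 and 447 in TD5, and was called lower in WB1 (-0.61) and TD5 (-0.71). NLRP1 was called lower in TD5 (-0.64). These calls lay close to 1.5-fold: NLRP3 was no longer called in WB1 when TPC1 replicate 1 or 3 (-0.58 in each) or WB1 replicate 2 (-0.52) was left out, nor NLRP1 in TD5 without TPC1 replicate 3 (-0.56). CASP1, the gene of caspase-1, had 14, 16 and 22 scaled reads in TPC1, 7, 3 and 3 in D11, 4, 9 and 4 in WB1, against 27, 29 and 24 in TD5. The TD5 libraries lay above and those of D11 and WB1 below all TPC1 libraries, and the call against TPC1 was in D11 (-0.62, adjusted p = 0.00362, limma). It was lost without TPC1 replicate 3 (-0.53) or without D11 replicate 2 or 3 (-0.58 in each), and WB1 was called without TPC1 replicate 1 (-0.60) or WB1 replicate 2 (-0.63), with the GC correction (-0.71), with a pseudocount of 0.1 (-1.38) and by voom (-1.64). PYCARD, the inflammasome adaptor, lay at 0 to 3.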

How the data were processed

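Gene symbols were matched in the deposited table. Per the paper's methods and the submitters' notes, the authors mapped paired-end reads of TruSeq Stranded mRNA libraries to GRCh38 with STAR (2.5.3a), counted genes with HTSeq (0.9.1) and scaled each library to 20000000 aligned reads. What the authors deposited is a score: whole numbers that sum to 20009833 to 20014191 per library, and not raw counts. The authors' edgeR quasi-likelihood test needs counts and was replaced by limma (3.58.1, R 4.3.3) with a mean-variance trend on log2(value per 1000000 + 1), 1 mean per line over 12 libraries, Benjamini-Hochberg over 16027 genes. Libraries were grouped by their labels, which give no batch. Deviations of same-numbered D11 and TD5 libraries correlated at 0.107, 0.172 and 0.348, while those of TD5 replicate 2 and D11 replicate 1 correlated at 0.203. No such pattern held for the other pairs of lines, and same-numbered D11 and TPC1 libraries correlated at -0.193, -0.127 and -0.127. An alternative fit with a replicate block nonetheless paired the libraries of all lines by their number. Members and lists were chosen with earlier results of these data known. Named were the 10 genes, DICER1, up to 4 genes per list by number of clones called and mean change, CXCL5, CXCL6, PF4 and PPBP, and the 3 genes most like each member; others, among them MYD88, TNFAIP3, NFKBIA, CX3CL1, ICAM1, AREG and the receptors, were named after their values were seen. Positions, exon lengths and 3′ regions came from GENCODE v44, promoters from RefSeq. Alternatives covered pseudocount, filter, fold, libraries fitted, scaling, variance model, block, GC content and leaving out each library. The calling was tested on simulated data. Tables and plots were made in Python 3.11.15 (pandas 2.3.3, numpy 2.4.6, matplotlib 3.10.9, scipy 1.17.1).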

Additional observations from a re-analysis of the deposited data

Results flagged for a closer look

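The clones differed from each other, which puts these genes among the results to look at again, each by the limma test of the difference between 2 clones. TD5 lay lower than D11 and WB1 in CXCL1 (-0.95 and -0.91), CXCL2 (-0.73 and -0.83), CXCL3 (-0.63 and -0.61), CXCL8 (-1.48 and -1.37) and IL24 (-0.79 and -0.68), and lower than D11 in IL11 (-0.61), NLRP3 (-0.59) and NLRP1 (-0.83), all on the log2 scale. CASP1 was higher in TD5 than in D11 (0.94) and WB1 (0.87). It passed the filter through TD5, the line where it is high (27, 29 and 24 scaled reads). Of the other libraries only TPC1 replicate 3 (22) reached that limit. Both CASP1 calls were lost with a pseudocount of 4 (0.34 and 0.32). WB1 lay above D11 in IL1R1 (0.67) and SOCS1 (0.84) and below it in NLRP1 (-0.62). With a pseudocount of 4 these were 0.57, 0.39 and -0.54, and not called. CXCL3, IL24 and CASP1 rest on few reads. The calls of IL24 against WB1 (-0.53 without WB1 replicate 1), NLRP1 in WB1 (-0.58 without WB1 replicate 2) and NLRP3 (-0.53 without D11 replicate 2 or TD5 replicate 3, and -0.55 without TD5 replicate 1) were lost without single libraries, and that of NLRP3 also with median-of-ratios scaling (-0.54), the GC correction (-0.58) and a pseudocount of 4 (-0.54).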

How the results depend on the processing

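CXCL1 and CXCL8 stayed called lower in TD5 against each other line under every setting tried. With the GC correction, alone or with the replicate block, 1 gene (CXCL8) was called in D11, 1 in WB1 and 1 in all 3 clones against TPC1, in place of 0. Without a minimum fold 4 genes were called in TD5 against TPC1. With a pseudocount of 4 the counts of TD5 against D11 and against WB1 were 2 and 2, and with a filter at 5 per 1000000, which leaves CXCL3 and IL11 out, that of TD5 against D11 was 3. Leaving out single libraries gave 2 to 3 genes in TD5 against TPC1, 4 to 5 against D11 and 3 to 4 against WB1, 0 to 0 in D11 and WB1 against TPC1, in WB1 against D11 and in all 3 clones, and differences from -0.10 to 0.02 for IL1A and from -0.05 to 0.07 for IL1B. The replicate block alone left the counts at 2, 5 and 4 in TD5 against TPC1, D11 and WB1 and at 0 elsewhere, and changed no other call. Over single genes and settings, 1058 values kept their call, 12 gained and 16 lost it, and 0 reversed. The depth limits CXCL3, CSF2, IL1A and IL1B, and a log2 scale with a pseudocount shrinks their differences.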
